A study of Mus musculus with 4 samples.

Results

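The data concern 10 genes for amino acid carriers of the plasma membrane in mouse splenic B cells activated with lipopolysaccharide (LPS), a ligand of Toll-like receptor 4. Slc7a3 was chosen on its scores in these samples, in which it differed between the groups. Slc7a1, Slc7a5, Slc7a6, Slc7a11, Slc3a2, Slc1a4, Slc1a5, Slc38a1 and Slc38a2 were taken by name, as carriers of related substrates. The 10 genes were found by their symbols among the 30041 genes of the deposited RNA-seq tables. The study compared 2 control samples with 2 cKO samples, all from C57BL/6 mice. Control B cells carried 1 floxed and 1 deleted Nfkbiz allele (Nfkbiz fl/Δ) without Cre, and cKO B cells had the same alleles with Mb1-cre. Mb1-cre is expressed from the Cd79a locus and deletes in the B lineage, and both groups therefore lacked 1 Nfkbiz allele in every cell. Nfkbiz encodes IκB-ζ, a nuclear protein that binds NF-κB subunits. B cells had been enriched from spleen by depletion of cells with CD43, CD4 or Ter-119, and were cultured with LPS for 72 h in RPMI medium with serum, to which L-glutamine (2 mM) and a mix of non-essential amino acids (0.1 mM) had been added. The labels do not say whether the samples of a group came from separate mice, so p-values measure only the spread between these samples.

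Activated B cells enlarge, divide and, in part, become antibody-secreting cells, and all of these draw on imported amino acids. Slc7a1, Slc7a2 and Slc7a3 encode CAT1, CAT2 and CAT3, which carry arginine, lysine and ornithine into cells without a sodium gradient. Slc3a2 encodes the heavy chain CD98, which brings light chains to the cell surface. The light chain of Slc7a5 is LAT1, which exchanges large neutral amino acids such as leucine, that of Slc7a6 is y+LAT2, which exchanges cationic for neutral amino acids, and that of Slc7a11 is xCT, which takes up cystine in exchange for glutamate. Slc1a4 and Slc1a5 encode the neutral exchangers ASCT1 and ASCT2, and Slc38a1 and Slc38a2 encode SNAT1 and SNAT2, which take up glutamine, alanine and other small neutral amino acids together with sodium.

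The deposited value is a score per gene. For single-transcript genes, 75.4 to 82.1% of low scores multiplied by the exon length fell within 0.2 of a step from a whole number of steps, as a count of reads per exon base would, and the step size gave an inferred depth of 17500000 to 19900000 reads per sample. The step was itself fitted to these scores for the best agreement, so the share is not an independent check. Some scores would also fall this close to a whole step by chance. On this limited ground scores were treated as values per length, and levels were compared between genes on the score scale. Nfkbiz, the targeted gene, scored 0.02409 in control 1, 0.02264 in control 2, 0.01270 in cKO 1 and 0.01156 in cKO 2, and was lower in cKO by limma (log2 difference -0.94, SE 0.096, adjusted p = 0.0282). This call was lost without cKO 1 (adjusted p = 0.13) and without cKO 2 (0.0885). The score covers the gene as a whole, so reads from the deleted part were not separated from the rest. All 7 B cell markers were detected in every sample at scores of 0.109 to 0.789. Among them Cd79a, named here because Mb1-cre sits in its locus, reached scores of 0.667 and 0.743 in control and 0.415 and 0.407 in cKO. Markers of other cells were at lower scores, with some exceptions. None of 9 T and NK cell markers reached a score of 0.005, and their summed score was 0.00286 to 0.00316 in control and 0.00461 to 0.00528 in cKO, with none at 0 in all samples. Of 10 myeloid markers 3 reached 0.005. Their summed score was 0.171 to 0.178 in control and 0.205 to 0.21 in cKO, S100a9 was at 0 in all samples, and most of the sum came from Itgam. Both genes are named after their values were seen. Without Itgam the myeloid sum was 0.0212 to 0.0367 in control and 0.0524 to 0.0703 in cKO. Of 5 erythroid markers 2 reached 0.005, with a summed score of 0.0133 in control 1 and 0.00184 to 0.00252 in the other samples. Of 6 plasma cell markers 5 reached 0.005, with sums of 0.253 to 0.314 in control and 0.224 to 0.273 in cKO and none at 0 in all samples. In a bulk sample, fewer cells of a type and less RNA per cell cannot be told apart. The part of these markers in the differences described here was not tested.

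In control B cells the carriers spanned a wide range of levels. Slc38a2 was highest, with a mean score of 0.117 ± 0.0209 (SD, n = 2), and was followed by Slc1a5 with 0.0668 ± 0.000361, Slc3a2 with 0.0423 ± 0.00046, Slc38a1 with 0.0316 ± 0.00436 and Slc7a5 with 0.0285 ± 0.0047. Slc38a1 and Slc7a5 overlapped between samples and so had no clear order. Slc7a1 came next with 0.0211 ± 0.00234, above Slc7a6 with 0.0176 ± 0.000601 and Slc7a11 with 0.0167 ± 0.000672, which again overlapped. Slc7a3 stood ninth with 0.00794 ± 0.00274, and Slc1a4 was last with 0.00109 ± 0.000276. In cKO B cells the first 5 genes kept this order and Slc7a6 came before Slc7a1. There the overlapping neighbours were Slc7a5 with Slc7a6, Slc7a1 with Slc7a11, and Slc7a3 with Slc1a4. The mean of Slc7a11 was 2.11 times that of Slc7a3 in control and 29.4 times in cKO. The summed score of the 10 genes was 0.346 and 0.354 in control 1 and 2 and 0.387 and 0.36 in cKO 1 and 2.

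**Figure D1:**
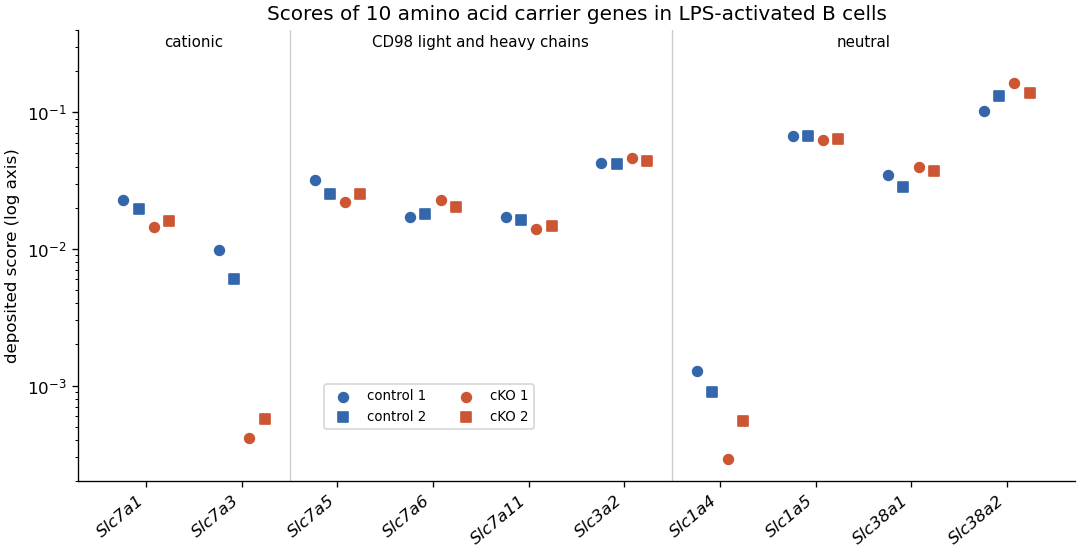
Deposited score (log axis) of each of the 10 carrier genes in each sample, with control 1 and 2 in blue and cKO 1 and 2 in orange. For Slc7a3 both cKO samples (0.00041 and 0.00057) lie far below both control samples (0.00988 and 0.00600). The points of Slc3a2 and of Slc1a5 lie close together.

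Slc7a3, which encodes the cationic carrier CAT3, lies on the minus strand at chrX:98274549-98281359 (NCBIM37), with 13 exons in its longest coding transcript. Its score was 0.00988 in control 1, 0.00600 in control 2, 0.00041 in cKO 1 and 0.00057 in cKO 2. Both control samples were high and both cKO samples low, and the control mean was 16.2 times the cKO mean. On the scale of log2(score + 0.0001) the difference was -3.74 (SE 0.462), and with a pseudocount of 0.001 it was -2.55. At the inferred depth, and with the length of the longest coding transcript, this amounts to some 485 and 302 reads for control 1 and 2 and 22.5 and 27.5 reads for cKO 1 and 2, so the gene was still detected in cKO. The gene entered the report because of this contrast, so its SE is given as a description and not as support. No test of it is given. None of its 38-base stretches, the read length of the study, occurred in an annotated protein-coding transcript of another gene. No exon of another annotated gene overlaps its exons. Non-coding transcripts were not searched. For the X chromosome as a whole, the median log2 difference of 281 X-linked genes was -0.019, against -0.010 for all 9727 genes kept.

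Slc7a1, the gene for CAT1 and the most abundant cationic carrier here, lies on the minus strand at chr5:149138986-149211480 (NCBIM37). Its score was 0.02278 in control 1, 0.01947 in control 2, 0.01447 in cKO 1 and 0.01588 in cKO 2. The cKO samples lay below the control samples, at 0.718 of the control mean, with a log2 difference of -0.47 (SE 0.113, 95% interval -0.75 to -0.19). By limma this had an unadjusted p of 0.00611 and an adjusted p of 0.105, which misses the threshold of 0.05. Whether it passed depended on the samples used. Without control 2 the difference was -0.58 and the adjusted p was 0.041, with the spread then taken from the cKO samples alone, whereas it was -0.36 (0.23) without control 1, -0.41 (0.493) without cKO 1 and -0.54 (0.195) without cKO 2. Slc7a2, the gene for the third carrier of this group, had scores of 0.00062 and 0.00069 in control and 0.00099 and 0.00075 in cKO, all below the filter of 0.005, and 635 of its exon bases overlap a transcript on the other strand. Whether reads were counted by strand is not given in the sources used here.

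The make-up of the cationic group differed accordingly. Slc7a3 made up 29.7% and 22.9% of the summed score of Slc7a1, Slc7a2 and Slc7a3 in control 1 and 2, and 2.58% and 3.31% in cKO 1 and 2. Slc7a1 made up 68.4% and 74.4% in control and 91.2% and 92.3% in cKO. The score of Slc7a1 was 2.31 and 3.25 times that of Slc7a3 in control and 35.3 and 27.9 times in cKO. The summed cationic score was 0.0333 and 0.0262 in control and 0.0159 and 0.0172 in cKO. The values that include Slc7a3 contain the contrast it was chosen on and are given as a description.

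**Figure D2:**
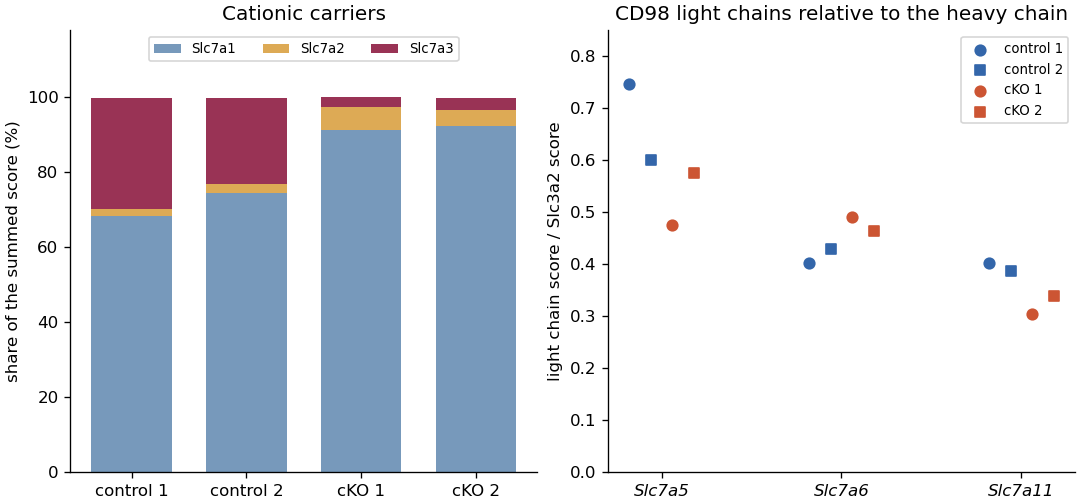
Left, share of Slc7a1, Slc7a2 and Slc7a3 in their summed score (%) in each sample. Right, score of each CD98 light chain gene divided by the score of Slc3a2, the heavy chain gene, with control in blue and cKO in orange. Slc7a3 takes 22.9 to 29.7% of the cationic score in control and 2.58 to 3.31% in cKO, and the ratio to Slc3a2 is lower in cKO for Slc7a5 and Slc7a11 and higher for Slc7a6.

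Of the 10 carriers, 9 passed the filter of a score of at least 0.005 in 1 sample, Slc7a3 only through its control samples. The 8 that were tested are those other than Slc7a3 and Slc1a4. None of the 8 passed an adjusted p of 0.05 by limma, and 3 of them, Slc7a1, Slc7a6 and Slc38a2, had an unadjusted p under 0.05. Among all genes kept, 1.25% were called lower and 0.812% higher in cKO by the same test, and at an unadjusted p under 0.05 the shares were 11.5% and 10.8%. The scores of the groups did not overlap for any of the 8 genes, 4 of which were lower and 4 higher in cKO. Across all genes kept, both cKO samples lay below both control samples in 30.1% and above them in 28.1%. A single gene or ratio compared between 2 and 2 samples cannot give a two-sided exact permutation p below 0.33.

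The heavy chain gene Slc3a2 (chr19:8781372-8797859, NCBIM37, minus strand) was the steadiest of the CD98 genes. Its score was 0.04264 and 0.04199 in control 1 and 2 and 0.04618 and 0.04367 in cKO 1 and 2. The groups were apart but close, with a log2 difference of 0.09 (SE 0.082, 95% interval -0.12 to 0.29, limma adjusted p = 0.561, and 0.05 to 0.13 on leaving out 1 sample). Of its 38-base stretches 4.69% also occurred in transcripts of other genes, and how the authors assigned such reads is not given in the sources used here.

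The 3 light chain genes differed from each other in direction. Slc7a5, for the leucine carrier LAT1, had scores of 0.03182 and 0.02518 in control and 0.02199 and 0.02516 in cKO. Control 1 was the highest sample, and control 2 and cKO 2 were almost equal (log2 difference -0.27, SE 0.139, 95% interval -0.61 to 0.08, limma adjusted p = 0.315). The difference was -0.10 without control 1, -0.17 without cKO 1 and -0.43 without control 2. Slc7a6, for y+LAT2, had scores of 0.01718 and 0.01803 in control and 0.02267 and 0.02021 in cKO. Both cKO samples were above both control samples, but the difference of 0.28 (SE 0.097, 95% interval 0.04 to 0.52) did not pass the limma test after adjustment (adjusted p = 0.185). Slc7a11, for the cystine carrier xCT, had scores of 0.01719 and 0.01624 in control and 0.01403 and 0.01481 in cKO. These lay slightly lower in cKO (log2 difference -0.21, SE 0.090, 95% interval -0.43 to 0.01, limma adjusted p = 0.241).

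Set against Slc3a2 in the same sample, Slc7a5 had a ratio of 0.746 and 0.6 in control 1 and 2 and 0.476 and 0.576 in cKO 1 and 2. The ratio of Slc7a6 was 0.403 and 0.429 in control and 0.491 and 0.463 in cKO, and that of Slc7a11 was 0.403 and 0.387 in control and 0.304 and 0.339 in cKO. The 3 light chains together were 1.55 and 1.42 times Slc3a2 in control and 1.27 and 1.38 times in cKO. Slc7a5 exceeded Slc7a6 by 1.85 and 1.4 times in control, whereas the ratio was 0.97 and 1.24 in cKO. For each of these ratios the groups did not overlap. For Slc7a5 and Slc7a11 over Slc3a2, and for Slc7a5 over Slc7a6, this had to be so, because the scores of the 2 genes were already apart in opposite directions. These ratios therefore add no separate result. The other ratios reached only the smallest exact permutation p of 0.33.

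Slc1a4, for the neutral exchanger ASCT1, was the least abundant member. Its score was 0.00128 and 0.00089 in control and 0.00029 and 0.00055 in cKO, below the filter throughout, or some 89.7 and 64.1 reads for the controls and 22.7 and 37.8 for cKO at the inferred depth. The log2 difference was -1.22, or -0.55 with a pseudocount of 0.001, and it was not tested. Its relative Slc1a5, for the glutamine exchanger ASCT2, was the second most abundant member and had scores of 0.06705 and 0.06654 in control and 0.06299 and 0.06333 in cKO. The samples of each group were nearly equal, and the log2 difference was -0.08 (SE 0.077, 95% interval -0.27 to 0.11, limma adjusted p = 0.56).

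Both sodium-coupled carriers lay higher in cKO. Slc38a1, for SNAT1, had scores of 0.03470 and 0.02854 in control and 0.03961 and 0.03726 in cKO (log2 difference 0.29, SE 0.117, 95% interval -0.0012 to 0.58, limma adjusted p = 0.226). The difference was 0.15 without control 2 and 0.43 without control 1. Slc38a2, for SNAT2, had scores of 0.10185 and 0.13138 in control and 0.16450 and 0.13831 in cKO. Control 2 and cKO 2 were close and control 1 was the lowest sample, with a log2 difference of 0.38 (SE 0.150, 95% interval 0.01 to 0.75, limma adjusted p = 0.216). Without control 2 the difference was 0.57 and the adjusted p was 0.0442, again with the spread of the cKO samples alone, whereas it was 0.20 (0.526) without control 1, 0.26 (0.703) without cKO 1 and 0.51 (0.244) without cKO 2.

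**Figure D3:**
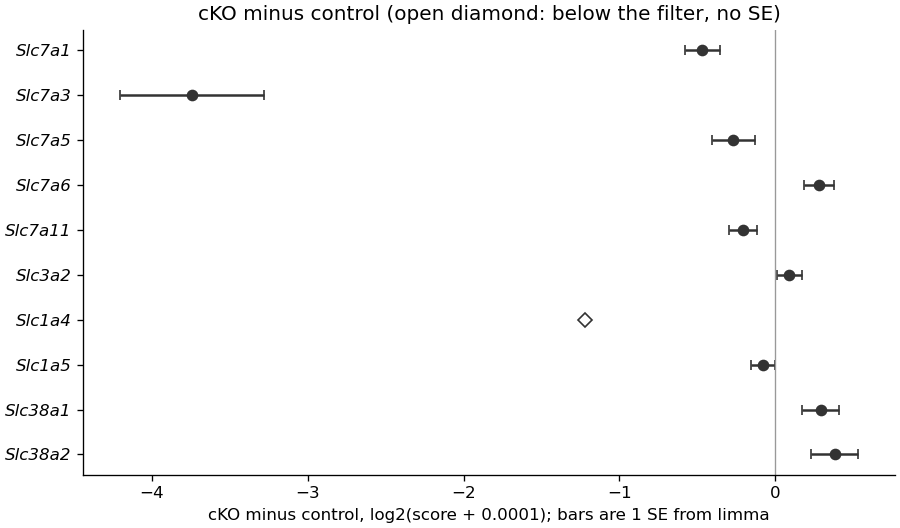
Difference of cKO minus control on the scale of log2(score + 0.0001) for each carrier gene. Bars are 1 SE from limma, and the open diamond is Slc1a4, which was below the filter. Slc7a3 lies at -3.74, and the 8 tested genes lie between -0.47 (Slc7a1) and 0.38 (Slc38a2). Slc7a3 was chosen on this contrast, so its bar is a description and not support.

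Cationic, cystine and neutral carriers were then compared within each sample. The 6 genes Slc7a5, Slc7a6, Slc1a4, Slc1a5, Slc38a1 and Slc38a2, counted here as neutral carriers although Slc7a6 also moves cationic amino acids, had a summed score of 0.254 and 0.271 in control 1 and 2 and 0.312 and 0.285 in cKO 1 and 2. Slc38a2 alone made up 40.1% and 48.6% of it in control and 52.7% and 48.6% in cKO. Slc7a1 with Slc7a3 amounted to 12.9% and 9.41% of the neutral sum in control and 4.77% and 5.78% in cKO. Part of this gap did not depend on Slc7a3, since Slc7a1 alone amounted to 8.97% and 7.2% of the neutral sum in control and 4.64% and 5.58% in cKO. Slc7a11 amounted to 6.77% and 6% in control and to 4.5% and 5.2% in cKO. Relative to the neutral carriers, both the cationic carrier Slc7a1 and the cystine carrier were thus lower in both cKO samples than in both control samples. This had to be so, because both genes were lower and the neutral sum was higher in both cKO samples. These ratios therefore add no separate result.

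Promoter windows of 250 bases before to 50 bases after the start site were read from RefSeq (GRCm38.p6) for the 6 members with an entry, Slc7a1, Slc7a6, Slc7a11, Slc3a2, Slc1a4 and Slc38a2. They were searched on both strands for the composite site of C/EBP and ATF proteins (TGATGNAA), through which ATF4 acts at many amino acid carrier genes. The site was found in 2 of the 6 genes, Slc7a11 and Slc1a4, and in 3.97% of all 32851 windows. The matches are shown because they are the places in these windows that carry this site, with the site in capitals and each sequence read 5′ to 3′ on the strand of its gene.
Slc7a11, chr3:50443661-50443690, minus strand, match at -66 from the start site: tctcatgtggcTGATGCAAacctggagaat
Slc7a11, chr3:50443642-50443671, minus strand, match at -47, on the other strand: acctggagaatTTGCATCAtcatgcagccc
Slc1a4, chr11:20332699-20332728, minus strand, match at -4, on the other strand: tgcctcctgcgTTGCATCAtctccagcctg
Both Slc7a11 matches lie within 30 bases of each other. The same 8 letters occur in the second of them and in Slc1a4, and the first carries these letters on the other strand. The core of the antioxidant response element (TGACNNNGC) was found in 4 of the 8 windows, and in 12.4% of all windows. These 4 belong to Slc7a1, Slc7a6 and Slc38a2, and the windows of Slc7a6 overlap and hold the same match. The E-box CACGTG was in none of the 8 windows and in 7.15% of all windows, and the NF-κB site was in none of the 8 and in 8.46%. These matches describe letters only and do not show binding.

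Atf4 itself, the transcription factor of the amino acid response, had scores of 0.13541 and 0.12282 in control and 0.10444 and 0.10250 in cKO (log2 difference -0.32, SE 0.086, limma adjusted p = 0.126). It belongs to a list of 36 genes for amino acid sensing by GCN2, ATF4 and mTORC1, of which 30 passed the filter. None of the 30 was called, and the median log2 difference was -0.01, equal to that of all genes kept. At an unadjusted p under 0.05 by limma 2 were lower and 3 higher, against 11.5% and 10.8% of all genes kept. Ddit4, a stress-induced inhibitor of mTORC1, had scores of 0.07649 and 0.10043 in control and 0.07705 and 0.07539 in cKO (limma adjusted p = 0.426).

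Few of the other carriers passed the filter. Of 40 further genes in a list of other amino acid carriers 5 did so. All 5 had a positive difference, with a median of 0.20 against -0.01 for all genes kept. Both cKO samples were above both control samples for 3 of the 5, a pattern found in 28.1% of all genes kept. By limma 2 of the 5 were higher at an unadjusted p under 0.05, against 10.8% of all genes kept. Slc38a6, which encodes SNAT6, was the 1 gene called, where 0.812% of all genes kept were called higher. Its score was 0.13274 and 0.13823 in control and rose to 0.20488 and 0.18624 in cKO (log2 difference 0.53, SE 0.086, limma adjusted p = 0.0488). This call was lost without control 1 (adjusted p = 0.064), without cKO 1 (0.278) and without cKO 2 (0.115), and 21.7% of the 38-base stretches of Slc38a6 also occur in other transcripts, so its score is uncertain. Of 15 mitochondrial and lysosomal carrier genes 8 passed the filter and none was called. At an unadjusted p under 0.05 by limma there were 1 lower and 1 higher, against 11.5% and 10.8% of all genes kept. The median was 0.20. Slc25a12, an aspartate and glutamate carrier of mitochondria, had scores of 0.01445 and 0.01258 in control and 0.01611 and 0.01490 in cKO (limma adjusted p = 0.332). Slc25a22, which carries glutamate, had scores of 0.01366 and 0.01035 in control and 0.01005 and 0.01021 in cKO (limma adjusted p = 0.404).

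Genes that use the carried amino acids were read from the same fit. Of 21 genes of arginine and polyamine metabolism 14 passed the filter, none was called, and the median log2 difference was -0.0014. At an unadjusted p under 0.05 by limma there were 2 lower and 1 higher, against 11.5% and 10.8% of all genes kept. Eif5a, the translation factor that carries the polyamine-derived hypusine, had scores of 0.644 and 0.578 in control and 0.517 and 0.563 in cKO (limma adjusted p = 0.306). Oaz1, an inhibitor of polyamine synthesis, had scores of 0.544 and 0.574 in control and 0.526 and 0.562 in cKO (limma adjusted p = 0.789). Of 15 genes of cystine use and glutathione 11 passed the filter and none was called. At an unadjusted p under 0.05 by limma there were 3, all higher, against 10.8% of all genes kept that were higher at this level. The median was -0.01. The abundant glutathione peroxidases Gpx1 and Gpx4 differed by 0.11 (SE 0.076) and -0.09 (SE 0.094), with limma adjusted p = 0.416 and 0.602.

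The list for glutamine, asparagine, serine and proline metabolism held 17 genes, of which 13 passed the filter. Of these 12 had a difference below 0 and 1 above, the median was -0.25 against -0.01 for all genes kept, and both cKO samples were below both control samples for 10, a pattern found in 30.1% of all genes kept. No gene of the list was called by limma, and 5 had an unadjusted p under 0.05, all lower in cKO, against 11.5% of all genes kept that were lower at this level. Got2, the mitochondrial aspartate aminotransferase, differed by -0.13 (SE 0.090, limma adjusted p = 0.438), and Shmt2, the mitochondrial serine hydroxymethyltransferase, by -0.26 (SE 0.106, limma adjusted p = 0.229). Of the 38-base stretches of Got2 42.1% also occur in transcripts of another gene, so the score of Got2 is uncertain. Asns, the asparagine synthetase, is named after its values were seen. It had scores of 0.00534 and 0.00272 in control and 0.00153 and 0.00119 in cKO, and its log2 difference was -1.43 (SE 0.456, limma adjusted p = 0.161).

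**Figure D4:**
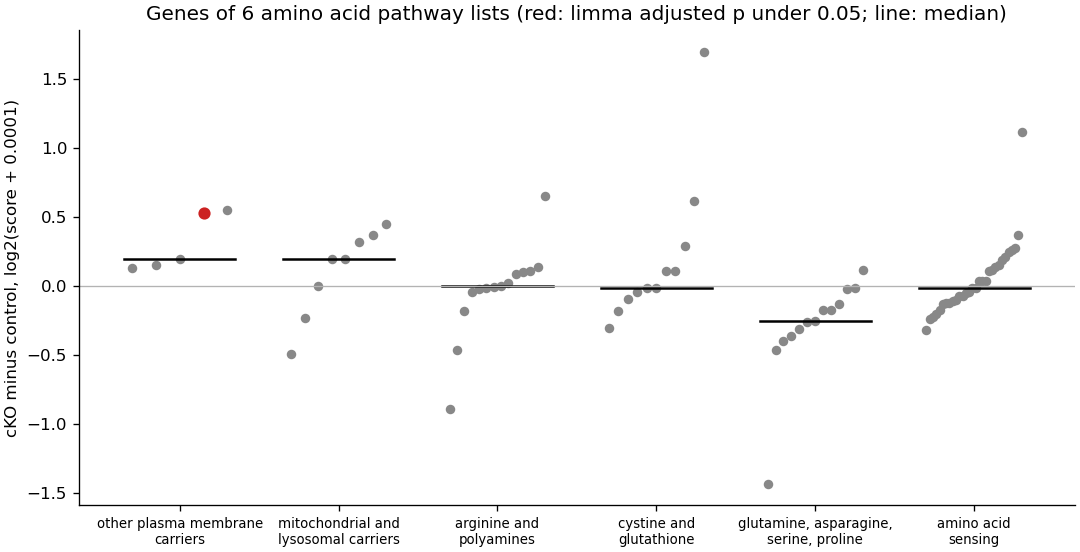
Difference of cKO minus control on the scale of log2(score + 0.0001) for each gene kept in 6 pathway lists, with the list median as a line and the gene past an adjusted p of 0.05 in red. The red point is Slc38a6 at 0.53, and the median of the glutamine, asparagine, serine and proline list lies at -0.25.

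The genes most like Slc7a3 over the 4 samples were found by the root mean square distance between log2(score + 0.0001) values, each gene centred on its own mean. Among the other 9726 genes kept the median distance was 1.89. Slc7a3 was chosen for its difference, so a gene without one lies far from it by construction, and this median is no yardstick of likeness. The search therefore favoured genes that were also much lower in cKO (log2 difference -2.82 for Prdm1 to -4.57 for LOC100504746). All 5 genes found passed the filter only through control samples. The nearest was BC023969 (distance 0.268), with scores of 0.00624 and 0.00575 in control and 0.00041 and 0.00040 in cKO. Gbp1, a guanylate-binding protein gene, followed at 0.349, with 0.01154 and 0.01038 in control and 0.00087 and 0.00141 in cKO. Ifi44 was at 0.423, LOC100504746 at 0.454, and Prdm1 at 0.497. Prdm1 encodes Blimp-1, a transcription factor of antibody-secreting cells, and had scores of 0.00835 and 0.00458 in control and 0.00083 and 0.00075 in cKO. The 6 plasma cell markers, of which Prdm1 is 1, did not move together. In both cKO samples 2 of them were below and 2 above both control samples, as were 30.1% and 28.1% of all genes kept. In Ifi44 and Prdm1, as in Slc7a3, control 1 was clearly above control 2, whereas the control samples of BC023969 and Gbp1 were close to each other. The distance rests on 4 samples, and no test of it was made.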

How the data were processed

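Poly(A) RNA of the 4 samples was sequenced by the authors as 38-base reads, which were aligned to mm9 with TopHat2 (version 2.0 per the labels). The authors deposited 1 score per gene and sample. The step from reads to the score is not given in the sources used here. No read counts were used here. Genes whose highest score was below 0.005 were left out, which kept 9727 of 30041. The groups were compared on log2(score + 0.0001) by limma 3.58.1 (R 4.3.3) with a variance trend and Benjamini-Hochberg adjustment over all genes kept, at a threshold of 0.05, after tests on simulated data. The members and gene lists were chosen with earlier results of these data known. The text names all members, Nfkbiz, Slc7a2, the 5 genes most like Slc7a3 and, from each pathway list, up to 4 genes past the threshold or otherwise the 2 with the highest control mean, and any other gene is said to be named after its values were seen. Ranges are over samples, and SDs are over n = 2. The pathway lists hold 144 genes, of which 142 were in the files by symbol. Positions, exon lengths and shared 38-base stretches came from NCBIM37, the assembly of mm9. Low scores times exon length were checked for steps in single-transcript genes of 600 to 1600 bases, at a tolerance of 0.2 step. Inferred reads are approximate. The alternatives were other pseudocounts, filters, scalings and variance models, replicate number as a block, and leaving out each sample.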

Additional observations from a re-analysis of the deposited data

How the results depend on the processing

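The values rest on 2 samples per group and on scores without read counts. The 8 tested carriers were refitted under 13 alternatives (98 fits of a gene, since Slc7a6 and 5 others fell under the stricter filter). None changed direction, and 96 stayed on the same side of the threshold, the exceptions being Slc7a1 and Slc38a2 without control 2. Counts over all genes by limma were less stable than the 122 lower and 79 higher of the main setting. Without a filter both were 0 (1538 and 1665 with an unadjusted p under 0.05), and without the variance trend they were 22 and 11. With a score above 0.05 required, 88 were lower and 35 higher, but only 1933 genes were then tested, against 9727 in the main setting. Leaving out 1 sample gave 0 to 391 lower and 0 to 439 higher. The counts were 0 without cKO 1 (519 and 428 at an unadjusted p under 0.05) and without cKO 2 (982 and 767), the highest counts came without control 2, and without control 1 there were 161 and 136. A group left with 1 sample was assumed to vary like the other group, and the cause of the change was not tested. For the pathway lists, 0 genes were higher without a filter (17 at an unadjusted p under 0.05) or without the trend (11), and leaving out 1 sample gave 0 to 2 lower and 0 to 5 higher. Without control 2 these were Asns and Srm, and Gclc, Hmox1, Sat1, Slc38a6 and Wdr59, and without control 1 Hmox1 and Wdr59. Those genes other than Slc38a6 were named after their values were seen. Oaz1 changed sign under equal sums (0.00), quantile normalization (0.07) and on leaving out samples (-0.09 to 0.01). Nfkbiz kept its direction but lost its call without a filter (adjusted p = 0.203), without the trend (0.0509), without cKO 1 (0.13) and without cKO 2 (0.0885). Samples of the same replicate number did not deviate together (Pearson -0.145 and Spearman -0.291 across 9727 genes, which are not independent replicates). With 2 samples per group the deviations within a group mirror each other, so this is a single comparison. It cannot show whether samples were paired, by the same number or by opposite numbers. With the replicate block 180 genes were lower and 177 higher, and 4 list genes were higher (Gclc, Hmox1, Slc38a6 and Wdr59). A crossed replicate block, added after seeing the data, gave 230 and 212, with 1 list gene lower and 4 higher.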
